A study of Mus musculus with 2 samples.

Results

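Cluster 2 of the fetal haematopoietic stem and progenitor cells (HSPCs), which the study named multipotent HSPCs, was examined cell by cell. Its members are the barcodes of the wild-type E18.5 library that the authors' published cell list places in that cluster, 173 of 545 listed E18.5 HSPCs (31.7%, 95% Clopper-Pearson interval 27.9 to 35.8%), of 5998 barcodes in that library and of 12823 in both libraries. The other 372 listed cells carry the names myeloid (144 cells), megakaryocyte (89 cells) and neutrophil (139 cells) progenitors. The clusters were made from these same transcriptomes, so every contrast between cluster 2 and the other listed cells is a description and carries no test.

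Single-cell transcriptomes were taken from E18.5 femoral marrow of mice labelled C57BL/6 in both libraries (the mutant line was kept on a mainly C57BL/6 background) after magnetic removal of cells carrying Ter119, Gr-1, B220 or CD3e, and were captured with the BD Rhapsody whole-transcriptome chemistry. There is 1 library for each of 2 genotypes. The first is labelled WT, with no floxed allele or Cre named. The second, Wls_cKO below, is labelled Bmx-CreER Wls and carries a floxed Wls, the gene of the carrier protein needed for Wnt secretion, with a tamoxifen-controlled Cre driven by Bmx in arterial endothelial cells. The pregnant dams of the Wls mutants received tamoxifen daily before collection, whereas litter, tamoxifen and the number of pooled embryos for the WT library are not given in the sources used here. Adult cells, which the study clustered together with these, were not analysed here. With 1 library per genotype and cells that are not replicates, no p-value is given, and all intervals cover counting error only.

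Multipotent progenitors stand below the haematopoietic stem cell and still give rise to several blood lineages. Progenitors that lean towards granulocytes fill their primary granules with the serine proteases Elane, Prtn3 and Ctsg and with the peroxidase Mpo, whereas those that lean towards monocytes and dendritic cells rely on the transcription factor Irf8. The receptor tyrosine kinase Flt3 marks multipotent and lymphoid-primed progenitors as well as dendritic precursors, and Cd34 is a sialomucin of immature haematopoietic cells.

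The WT library holds 22708005 unique molecular identifiers (UMIs) and the Wls_cKO library 24704991, with medians of 3059 and 3008 per barcode. The libraries share 49 barcodes, none of which (0) is in cluster 2. Cluster 2 holds 1151803 UMIs, with a median of 6311 per cell (1117 to 14329), against a median of 6266 in the other listed HSPCs, and a median mitochondrial share of 5.28% (1.59 to 13.5%). Levels below are in CPM, the UMIs of a gene or list per 1000000 UMIs of the group of cells.

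Elane had the highest ratio of all ranked genes between cluster 2 and the other listed cells, and the 250 bases upstream of the start of Elane, Prtn3, Mpo and Ctsg are shown because most UMIs of all 4 genes came from the same group of cells inside cluster 2. They are RefSeq promoters of build GRCm38.p6, written 5′ to 3′ on the gene's strand, with capitals for GAGGAAG (a PU.1 core) and AACTG (a MYB core) on either strand.
Elane (chr10:79886062-79886311, plus strand): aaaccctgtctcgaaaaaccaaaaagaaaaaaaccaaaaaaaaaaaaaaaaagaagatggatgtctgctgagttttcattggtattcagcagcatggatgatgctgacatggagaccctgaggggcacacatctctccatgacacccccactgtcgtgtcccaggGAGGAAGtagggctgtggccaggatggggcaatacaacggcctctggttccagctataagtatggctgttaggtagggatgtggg
Prtn3 (chr10:79879417-79879666, plus strand): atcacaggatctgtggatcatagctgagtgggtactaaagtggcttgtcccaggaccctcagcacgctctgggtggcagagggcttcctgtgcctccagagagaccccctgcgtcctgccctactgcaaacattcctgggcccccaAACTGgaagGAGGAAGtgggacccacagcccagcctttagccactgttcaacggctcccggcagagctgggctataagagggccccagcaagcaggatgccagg
Mpo (chr11:87793534-87793783, plus strand): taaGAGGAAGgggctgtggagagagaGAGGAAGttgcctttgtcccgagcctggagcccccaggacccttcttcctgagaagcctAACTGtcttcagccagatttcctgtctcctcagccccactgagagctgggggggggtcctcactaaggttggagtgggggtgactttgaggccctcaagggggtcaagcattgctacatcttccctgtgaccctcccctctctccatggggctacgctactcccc
Ctsg (chr14:56102575-56102824, minus strand): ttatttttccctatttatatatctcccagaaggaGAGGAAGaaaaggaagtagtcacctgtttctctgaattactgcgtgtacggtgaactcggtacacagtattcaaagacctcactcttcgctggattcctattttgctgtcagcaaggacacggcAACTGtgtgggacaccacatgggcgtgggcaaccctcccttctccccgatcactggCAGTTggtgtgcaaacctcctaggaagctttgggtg
Each of these promoters holds GAGGAAG, at base -85 from the start in Elane, -95 in Prtn3, -247 and -224 in Mpo and -216 in Ctsg. In windows of 300 bases around the start, GAGGAAG is found in 13.4% of 32544 RefSeq promoters. Among primary granule genes that have one it is in 5 of 9, which include the 4 shown. It is not particular to them, being in 2 of 4 osteoclast genes (Ctsk and Oscar) and 3 of 10 monocyte genes. Stem cell genes hold it in 2 of 13, dendritic genes in 1 of 11 and eosinophil genes in 0 of 4. AACTG is common, in 44.9% of promoters, and is present in Prtn3, Mpo and Ctsg. Neither TTGCNNAA nor TTNNGNAA (C/EBP cores, which overlap each other and are found in 40.7% of promoters) occurs in the windows of these 4 genes. Letters in a window are a description and do not show that a factor binds. Elane and Prtn3 are neighbours on chromosome 10 (Elane chr10:79886312-79888216, Prtn3 chr10:79879667-79883174), Mpo lies at chr11:87793784-87804412 and Ctsg at chr14:56099885-56102574.

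The 6 genes taken as markers of this cluster were higher in cluster 2 than in the other listed cells, but by very different amounts and in different numbers of cells. Elane reached 201 CPM (232 UMIs, 176 to 229) against 5.99 in the myeloid subset, with 0 UMIs in the megakaryocyte and neutrophil subsets, where 3 counts would be 6.21 and 2.79 CPM. The ratio of cluster 2 to all other listed cells was 96.5 (40.7 to 299.9, exact conditional interval). Only 27 of 173 cells held an Elane UMI.

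Prtn3, the granule protease proteinase 3, was broader, with 1009 UMIs in 90 cells, a level of 876 CPM and a ratio of 9.49 (8.20 to 11.03). It stood at 236 CPM in the myeloid and 49.6 in the megakaryocyte subset. Irf8 stood at 121 CPM in cluster 2 and between 6.21 and 14.4 in the other subsets, a ratio of 12.6 (8.04 to 20.5), with UMIs in 47 cells. Flt3 was at 181 CPM against 46.7, 22.8 and 2.79 in the myeloid, megakaryocyte and neutrophil subsets (ratio 8.20, 6.04 to 11.3), in 81 cells. Prtn3, Irf8 and Flt3 were each highest in cluster 2. They are markers of a cluster made from these same transcriptomes, so this order is a description and no support.

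Cd34 was the most widely found of these genes, in 114 of 173 cells, and the least specific. Its level of 681 CPM compared with 434 in the megakaryocyte and 344 in the myeloid subset, and the ratio to all other listed cells of 3.22 (2.88 to 3.61) was 1.81 (1.61 to 2.02) without the neutrophil subset. Ly86, a partner of an innate immune receptor, gave only 53 UMIs in 22 cells, at 46.0 CPM against 27.0 in the neutrophil subset (ratio 3.34, 2.12 to 5.32). Of the 5 genes in this list with at least 100 UMIs over the listed HSPCs, 5 were at least 2-fold higher in cluster 2, where 2.32% of 5903 genes were. The clustering used this contrast, so nothing is read from that count. Against the myeloid and megakaryocyte subsets alone, 4 of the 5 were at least 2-fold higher, where 3.24% of the same genes were higher and 2.59% lower.

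Depth changes the shares of cells, which were therefore also counted after thinning each cell to 1000 UMIs. Thinned, Cd34 was found in 38.7% of cluster 2 cells, Prtn3 in 26.0%, Flt3 in 17.3%, Irf8 in 11.6%, Elane in 9.25% and Ly86 in 4.62%. Listed chondrocytes, which should lack these genes, had at most 3.21% (Cd34) after thinning and 0% for the other 5 genes. Median depths before thinning were 6311 UMIs in cluster 2 and 2765 in chondrocytes.

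**Figure D1:**
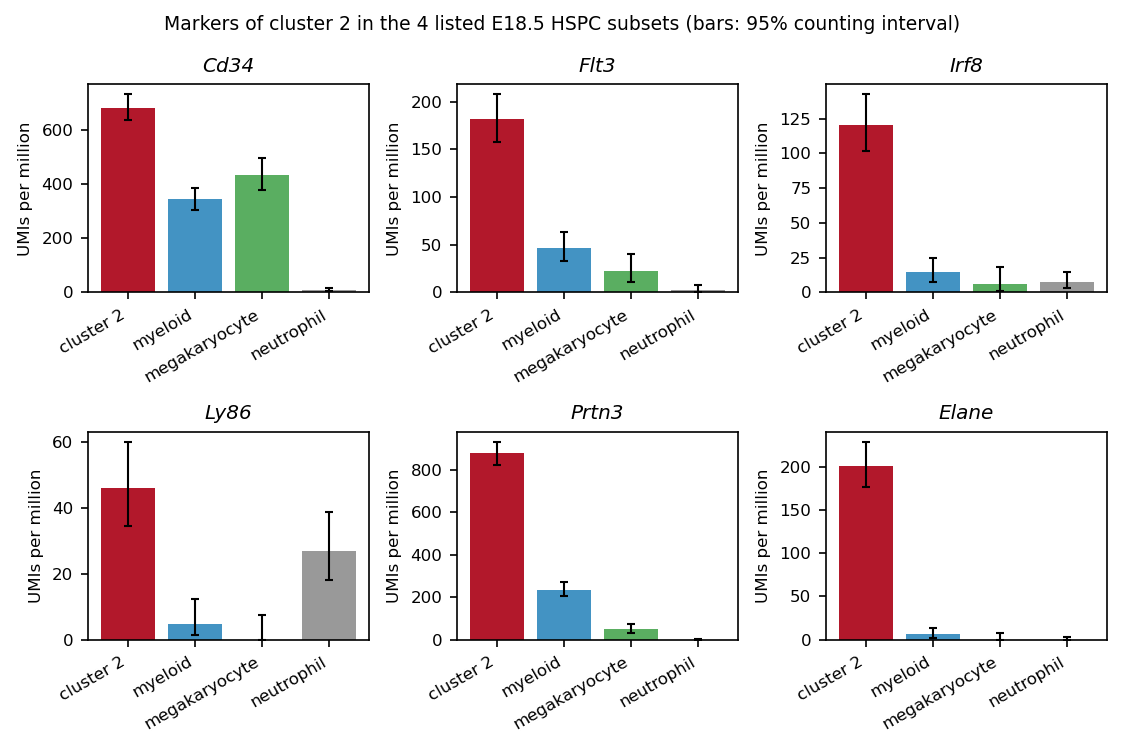
Levels of Cd34, Flt3, Irf8, Ly86, Prtn3 and Elane in the 4 listed E18.5 HSPC subsets, in CPM, 1 library, with 95% counting intervals as error bars. Elane is at 201 in cluster 2 and 5.99 in the myeloid subset, whereas Cd34 is at 681 and 344.

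Cluster 2 was not uniform. Clustering its 173 cells on their own, without any gene of the lists used to describe them, gave 5 groups, which are called here by a leading gene: a Hlf group of 65 cells (37.6%, 30.3 to 45.2%), a Mmp9 group of 44 (25.4%, 19.1 to 32.6%), an Elane group of 30 (17.3%, 12.02 to 23.8%), a H2-Aa group of 17 (9.83%, 5.83 to 15.3%) and a further 17 cells in which no gene found in at least 40% of the cells was above 5.31 times the rest, called the unmarked group. The 6 marker genes were split among them. The Elane group held 230 of 232 Elane UMIs and 734 of 1009 Prtn3 UMIs, the Hlf group 162 of 209 Flt3 UMIs and 496 of 784 Cd34 UMIs, and the H2-Aa group 84 of 139 Irf8 UMIs. The Mmp9 group held 22.3% of all UMIs of cluster 2 but 0 UMIs of Elane, Prtn3 and Flt3 and 4 UMIs of Cd34, in 1 cell.

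**Figure D2:**
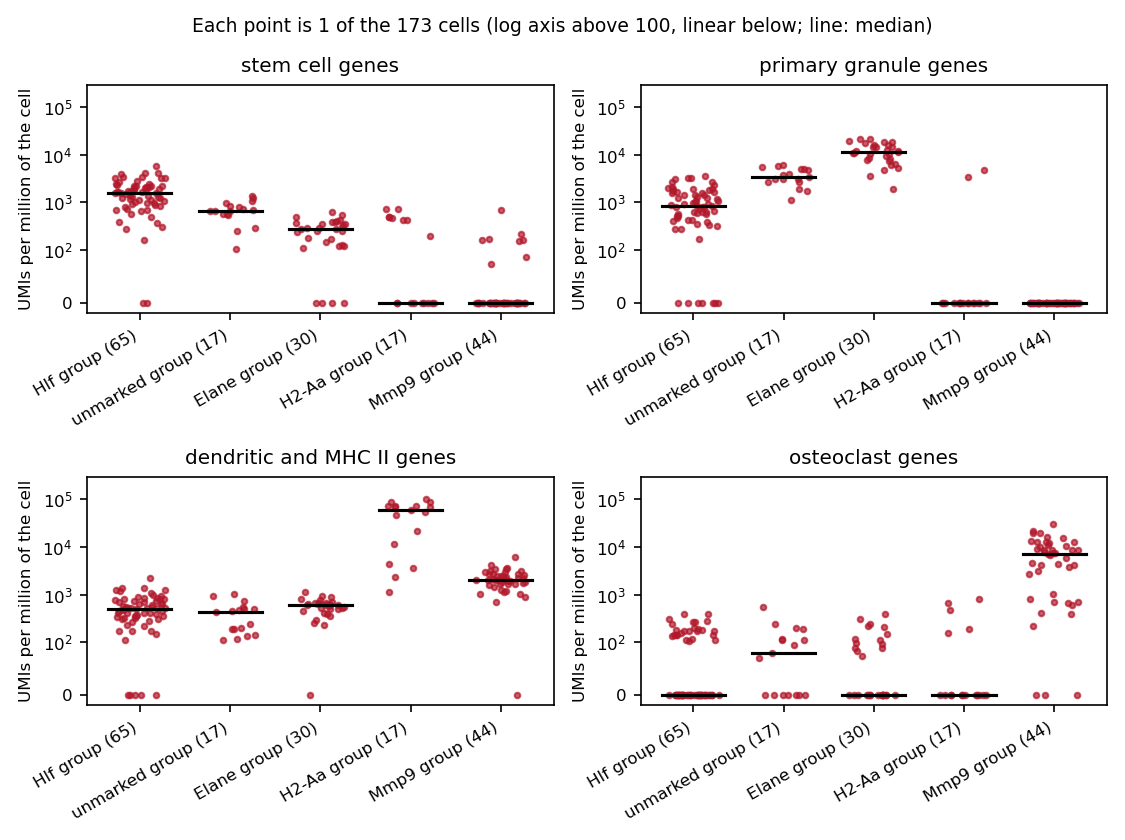
Summed level of stem cell, primary granule, dendritic and MHC II, and osteoclast genes in each of the 173 cells of cluster 2, in CPM of the cell (log axis above 100, linear below), by group, with the number of cells in brackets and a line at the median. Each list has its highest median in a different group, and the median of osteoclast genes is 7158 in the Mmp9 group and at most 80.1 in the others.

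The Hlf group carried the stem cell genes. Hlf, a transcription factor of stem and multipotent progenitors, had 244 UMIs in 48 of its 65 cells and 45 UMIs in 20 of the other cells, a level in CPM 9.67 times that of the rest. Hoxa9, a homeobox factor of immature progenitors, had 113 of its 146 UMIs there, and Satb1, a chromatin organiser of lymphoid-primed cells, 98 of 125. Outside the lists, Ctla2a (241 UMIs in 55 cells, 15.9 times the rest), Gimap6 (59 UMIs in 42 cells, 15.04 times) and Rgs1 (162 UMIs in 53 cells) led this group. Hlf itself was not particular to this group, being found in 13 of 17 cells of the unmarked group, 51 of 89 listed megakaryocyte and 39 of 144 listed myeloid progenitors.

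Within the same 65 cells, Cd34 was detected in 64, Flt3 in 57, Kit, the stem cell factor receptor, in 50 and the fetal chromatin factor Hmga2 in 65. Mpo was detected in 50 of them at low level (330 UMIs, 13.3% of the Mpo of cluster 2) and Prtn3 in 43, but Elane and Ms4a3, genes of later granule stages, were at 0 UMIs. Flt3 and Hlf were found together in 42 of the 65 cells, and Hlf and Mpo in 36. So stem cell genes and the early granule gene Mpo were read from the same barcodes in this group.

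The unmarked group resembled the Hlf group in its stem cell genes and the Elane group in Mpo. Mpo was detected in all 17 cells (376 UMIs), Cd34 in 17, Prtn3 in 16 and Hlf in 13, with Elane in 1. Its summed stem cell level was 696 CPM, between 1554 in the Hlf group and 279 in the Elane group, and its primary granule level was 3824, between 1213 and 12010. No Scrublet score in either the Hlf or the unmarked group was among the highest 5% of the library.

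Granule genes peaked in the Elane group. Elane was found in 26 of its 30 cells, Mpo in all 30 (1718 UMIs), Prtn3 in 29 and Ctsg in 28 (372 of 442 UMIs). Cebpe, a transcription factor of granulocyte maturation, was found in 16 of these cells (35 UMIs) and in 0 other cells of cluster 2, and Ms4a3, a membrane protein of granulocyte-monocyte progenitors, in 26 (85 of 87 UMIs). Myb, a transcription factor of cycling progenitors, was detected in all 30 cells, with 249 of 515 UMIs. At a finer resolution the group split into 17 cells that include all Prg2 cells and 13 others, and the 17 held 180 of the 230 Elane, 26 of the 35 Cebpe and 144 of the 175 Hdc UMIs, with primary granule genes at 14638 CPM against 9034 in the 13. The group thus combined the granule proteases with Cebpe, whereas the secondary granule genes of later neutrophils were nearly missing: S100a8 had 20 UMIs, S100a9 5 and Camp, Ngp and Ltf 0 in these cells.

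Eosinophil granule genes came from 8 cells of this group. Prg2, the eosinophil major basic protein, had 1899 UMIs in those 8 cells, up to 424 in 1 cell, and 0 UMIs in the rest of cluster 2. Prg3 had 101 UMIs in the same number of cells, Epx, the eosinophil peroxidase, 89 in 6 cells, and the eosinophil ribonucleases Ear1 and Ear6 77 in 6 cells and 204 in 7. All 8 cells with Prg2 also held Mpo, and 6 held Elane. Scrublet scores each barcode for how far it looks like a doublet, and without the highest 5% of scores 4 of the 8 Prg2 cells remained. The part of doublets was not tested.

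The H2-Aa group was small and shallow, with a median of 2321 UMIs against 6311 in all of cluster 2, and it carried antigen presentation genes. The MHC class II genes H2-Aa (306 UMIs) and H2-Eb1 (167 UMIs) were found in 12 of its 17 cells and at 0 UMIs in the rest of cluster 2. H2-Ab1 had 260 of 264 UMIs there and Cd74, the invariant chain of MHC class II, 182 of 185. Clec9a, a receptor of conventional dendritic cells, had 12 UMIs in 8 cells and Naaa 80 in 12, against 0 and 9 UMIs elsewhere. The chemokine receptor Ccr2 was found in 16 of the 17 cells (80 of 93 UMIs).

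Irf8 was detected in 14 of these 17 cells, Flt3 in 11 and Ly86 in 12, but Cd34 in 6, Kit in 2 and Hlf in 1. The group's monocyte list stood at 9640 CPM, led by Lyz2 (233 UMIs in 13 cells), and its dendritic list at 31901. Primary granule UMIs were found in 2 of the 17 cells, which held all 56 Mpo and 24 Prtn3 UMIs of the group and were its deepest cells, at 8276 and 13022 UMIs. Its G2/M genes were at 1400 CPM, against 3657 in all of cluster 2.

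The Mmp9 group went against the label multipotent. All 10 primary granule genes, Myb, Hlf, Hoxa9 and Flt3 were at 0 UMIs in its 44 cells, where 3 counts would be 11.7 CPM, and Cd34 and Kit were each found in 1 cell. Instead it split at a finer resolution into 33 cells with osteoclast genes (Ctsk cells) and 11 with macrophage genes (C1qc cells). The 33 cells held 572 of 577 UMIs of Ctsk, the bone-resorbing cathepsin K (23 cells), 684 of 720 of the gelatinase Mmp9 (32 cells), 288 of 290 of Atp6v0d2, a subunit of the osteoclast proton pump (30 cells), 171 of 182 of Acp5, the tartrate-resistant phosphatase (31 cells), and all 33 of Dcstamp, a fusion factor (18 cells).

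Their osteoclast list, at 10272 CPM, was above 1548 in the listed myeloid and below 46487 in the listed neutrophil progenitors. That last subset had Ctsk at 18556 CPM and Elane, Prtn3 and Hlf at 0 UMIs. The 33 cells were also the group with the highest G2/M level, 5613 CPM, with Ube2c (186 UMIs), Birc5 (163) and Ccnb1 (90) among its genes. Myeloid receptors were present, with Csf1r, the receptor of macrophage colony-stimulating factor, in 29 of 33 cells.

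The other 11 cells of the Mmp9 group carried the macrophage list at 10410 CPM. C1qc, C1qb and C1qa, the chains of complement C1q, had 201, 121 and 53 UMIs in 11, 11 and 10 of these cells. Mrc1, the mannose receptor, had 52 UMIs in 8 cells, Lyve1, a hyaluronan receptor, 55 in 5, and Maf, a transcription factor of macrophages, 107 in 10. Pf4, listed as a platelet gene, had 120 of its 122 UMIs in these 11 cells, where Itga2b, Gp1bb, Gp9, Vwf and Treml1 were at 0 UMIs. Of these 11 cells, 8 were among the highest 5% of Scrublet scores (72.7%), against 9.25% of all of cluster 2, and the part of doublets was not tested.

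Genes of stem and multipotent progenitors were thus spread unevenly, with Hlf found mainly in the Hlf (48 of 65 cells) and unmarked (13 of 17) groups. The Elane group had Hlf in 6 and Flt3 in 4 of 30 cells, but Cd34 in 26 and Kit in 21. The H2-Aa group combined Flt3 and Irf8 with few Cd34 or Kit UMIs, and the Mmp9 group had 0 UMIs of Hlf and Flt3. The 44 cells of the Mmp9 group stayed together in every setting of the grouping except a finer resolution, which cut them into the 33 and the 11. The 65 cells of the Hlf group stayed together with 8 or 20 principal components, with 59 of them together when 1000 variable genes were used, and 39 at the finer resolution. The Elane group was split, with 16 or 17 of its 30 cells together, in 4 of 5 other settings. The unmarked group joined larger groups of 30 to 46 cells in 4 of 5, and in 2 of them the H2-Aa cells fell in a group of the same size, 46 or 40 cells, so neither the unmarked group nor its border is firm.

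**Figure D3:**
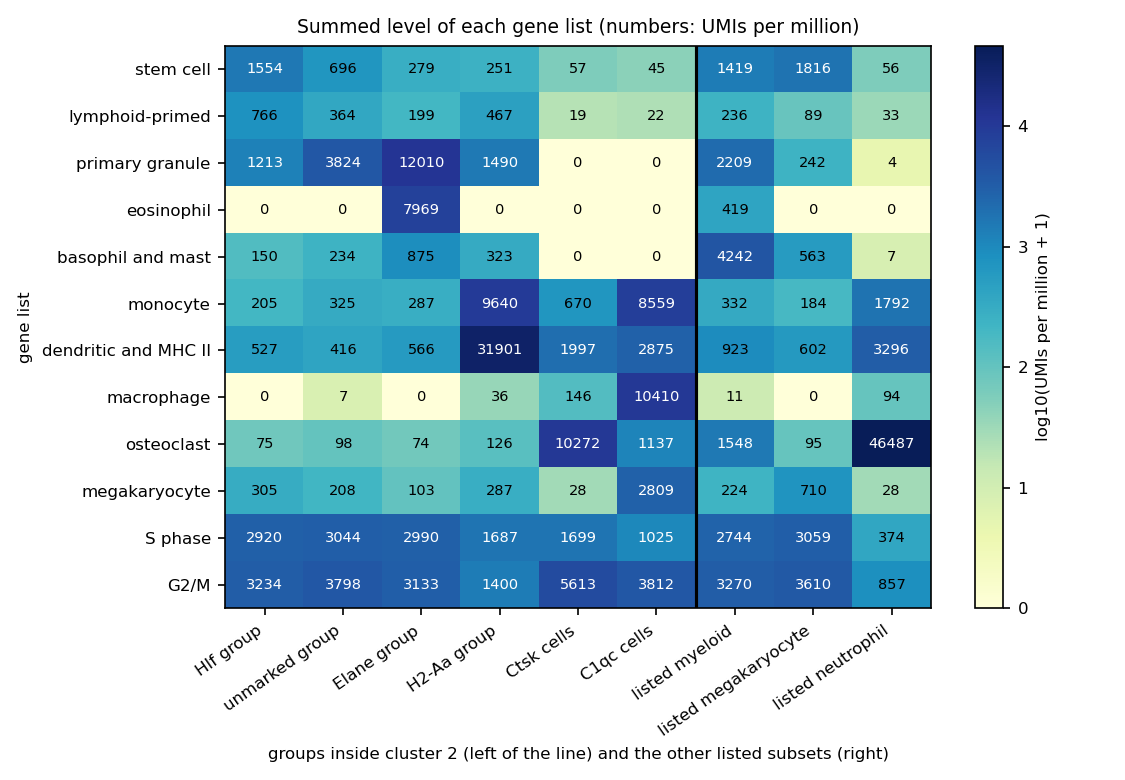
Summed level of 12 gene lists, in CPM on a log10 colour scale with the value printed, in the groups inside cluster 2 (left of the line; the Mmp9 group is shown as its Ctsk and C1qc cells) and in the other 3 listed subsets (right). Stem cell genes are at 1554 in the Hlf group and 1816 in the listed megakaryocyte progenitors, and osteoclast genes at 10272 in the Ctsk cells and 46487 in the listed neutrophil progenitors.

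Ranking all genes with at least 100 UMIs over the listed HSPCs brought up genes of several of these groups. The 15 highest ratios of cluster 2 to the other listed cells were those of Elane, Ear6, Irf8, Prg2, Prg3, C1qb, Cd74, H2-Eb1, C1qc, Prtn3, H2-Aa, Flt3, F630028O10Rik, Pf4 and H2-Ab1. Elane, Ear6, Prg2, Prg3, Prtn3 and F630028O10Rik (103 of 113 UMIs) came mostly from the 30-cell Elane group, Irf8, Cd74, H2-Eb1, H2-Aa and H2-Ab1 from the 17-cell H2-Aa group, and C1qb, C1qc and Pf4 from the 11 macrophage-gene cells. Flt3 was the single gene of the 15 with most UMIs in the Hlf group. Prg2 had a ratio of 12.5 (11.1 to 14.1) with all of its UMIs in 8 cells, while Flt3, at a ratio of 8.20, had 23.4% of its UMIs in its top 8 cells.

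The 10 lowest ratios were those of Itgb3, Ibsp, Oscar, Afp, Mst1r, Prss34, Gzmb, Cma1, Edil3 and Mt3. Itgb3 (363 CPM), Oscar (369), Mt3 (362), Mst1r (134) and Edil3 (120) were high in the neutrophil subset with its osteoclast genes and at 0 to 3.47 CPM in cluster 2. Prss34, a basophil protease (520 CPM), Gzmb (409) and Cma1, a mast cell chymase (152), were high in the myeloid subset and at 0 to 1.74 in cluster 2. Afp had 403 UMIs in 3 of the other cells, and Ibsp, a bone matrix gene, 125 in 9, so both ratios rest on few cells. Over the listed HSPCs, 6.47% of 5903 genes were at least 2-fold lower in cluster 2.

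Summed over the whole cluster, stem cell genes were not raised. Their level was 741 CPM in cluster 2, 1419 in the myeloid and 1816 in the megakaryocyte subset, with 55.8 in the neutrophil subset, and the ratio to all other listed cells was 0.836 (0.772 to 0.906). Leaving out the 44-cell Mmp9 group moved it to 1.06 (0.976 to 1.15, which includes 1), and leaving out the neutrophil subset to 0.474. Gata2 carried much of the list in the other subsets (1000 CPM in the myeloid, 523 in the megakaryocyte subset and 77.3 in cluster 2). Hlf (250.9 CPM, ratio 2.31, 1.95 to 2.74) and Hoxa9 (127 CPM, ratio 2.76, 2.14 to 3.57) were higher in cluster 2 than in all other listed cells together. These included the neutrophil subset, with both genes in 0 of 139 cells. Hlf was found in 39.3% of cells of cluster 2, 57.3% of the megakaryocyte and 27.1% of the myeloid subset. Hoxa9 was found in 42.2%, 44.9% and 20.1%, in the same order. Thinned to 1000 UMIs, the shares were 16.8%, 20.7% and 9.42% for Hlf and 9.83%, 11.5% and 6.52% for Hoxa9. Genes of the long-term stem cell were rare: Procr had 11 UMIs, Slamf1 2, Mecom 19, Fgd5 22 and Hoxb5 0. Slamf1, a surface receptor of stem cells, stood at 53.8 CPM in the megakaryocyte subset against 1.74 in cluster 2.

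Of the lymphoid-primed genes, Flt3 was found in 81 and Satb1 in 74 of 173 cells. The lymphoid-primed list was at 398 CPM in cluster 2 and at 766 in the Hlf group, against 236 and 88.9 in the myeloid and megakaryocyte subsets (ratio to all other listed cells 3.46, 2.97 to 4.04). Notch1 had 17 of 19 UMIs in the Hlf group. Rag2 had 9 UMIs in 7 cells and Rag1 3 UMIs in 1 cell, all in the Hlf group. Dntt, Ly6d, Igll1, Cd3e and Cd7 were at 0 UMIs, where 3 counts would be 2.60 CPM, and Il7r, the interleukin 7 receptor, had 5 UMIs in 4 cells. Lineage depletion removed cells carrying B220 or CD3e before capture.

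Primary granule genes stood at 3854 CPM in cluster 2, 2209 in the myeloid, 242 in the megakaryocyte and 3.72 in the neutrophil subset, a ratio of 4.69 (4.45 to 4.95). Of the 6 members with at least 100 UMIs, 5 were at least 2-fold higher, where 2.32% of all ranked genes were. The list's median log2 ratio was 2.09, against 0.13 over all genes. The list holds the cluster markers Elane and Prtn3, and the clustering used this contrast, so nothing is read from that count or median. Mpo alone supplied 2480 of 4439 UMIs, at 2153 CPM against 1480 in the myeloid subset. Nkg7, a granule membrane gene, did not share this, at 59.9 CPM against 152 in the myeloid subset (ratio to all other listed cells 1.02, 0.751 to 1.37). Csf3r, the granulocyte colony-stimulating factor receptor, had 32 UMIs in 28 cells.

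Monocyte and dendritic lists depended on which cells were set against cluster 2. Monocyte genes stood at 1108 CPM, above 332 and 184 in the myeloid and megakaryocyte subsets and below 1792 in the neutrophil subset, where Csf1r alone reached 1172. The ratio was 1.16 (1.08 to 1.24) against all other listed cells and 3.99 against the myeloid and megakaryocyte subsets. It moved to 0.938 (0.868 to 1.01, which includes 1) without the highest 5% of Scrublet scores and to 0.875 (0.805 to 0.951) without the Mmp9 group. F13a1 (ratio 6.09), Ms4a6c (3.32) and Lyz2 (1.82) were higher in cluster 2, with most of their UMIs in the H2-Aa group and the 11 macrophage-gene cells. The dendritic list was at 2401 CPM (ratio 1.25, 1.19 to 1.31), of which Cst3 gave 1627 of 2765 UMIs, and its ratio was 3.06 as a mean over cells.

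Mast cell and basophil genes were low in cluster 2, whereas the megakaryocyte list was not. The basophil and mast list stood at 307 CPM against 4242 in the myeloid subset, with Tpsb2, Cma1, Mcpt4 and Fcer1a at 0 UMIs, and 6 of 6 members with at least 100 UMIs were at least 2-fold lower, where 6.47% of all ranked genes were. These 6 passed the minimum mainly through the myeloid subset, so the count is no support. Hdc, the histamine-forming enzyme, was the exception within cluster 2, with 175 of 202 UMIs in the Elane group. The megakaryocyte list stood at 290 CPM, against 710 in the megakaryocyte and 224 in the myeloid subset (ratio to all other listed cells 1.24, 1.08 to 1.42), with 120 Pf4 UMIs from the C1qc cells among them. Itga2b, the platelet integrin chain, was at 6.95 CPM against 108 in the megakaryocyte subset, and Gp1bb, Gp9, Vwf, Treml1 and Ppbp together showed no more than 4 UMIs each. Gata1, the erythroid and megakaryocytic factor, had 11 UMIs, 10 of them in the Elane group, and Klf1 3.

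Cartilage and stromal genes, which blood progenitors should lack, were at 345 CPM in cluster 2 (0 to 7923 over cells), against 4926 in the myeloid, 807 in the megakaryocyte, 374 in the neutrophil subset and 91455 in chondrocytes. All 7 of these genes had UMIs in cluster 2. By group they ranged from 239 in the Hlf group to 780 in the C1qc cells. Endothelial genes summed to 99.8 CPM, with Pecam1 and Tie1, which blood progenitors also express, giving 63 and 30 of 115 UMIs.

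Cell cycle genes were at similar levels in cluster 2 and in the myeloid and megakaryocyte subsets. The S phase list stood at 2595 CPM in cluster 2, 2744 in the myeloid and 3059 in the megakaryocyte subset, and 374 in the neutrophil subset. G2/M genes were at 3657, 3270, 3610 and 857 in the same order (ratio 1.62, 1.56 to 1.69, and 1.08 against the myeloid and megakaryocyte subsets). Mki67 was detected in 117 of 173 cells. Among the Cdk inhibitors, Cdkn1c, a quiescence gene of stem cells, was at 18.2 CPM against 163 in the myeloid and 93.1 in the megakaryocyte subset (ratio to all other listed cells 0.226, 0.137 to 0.356), while Cdkn1b was at 116 against 120 and 95.1.

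Of the genes listed as a fetal programme, Hmga2 and Igf2bp3 were read in most cells, and no adult cells were set beside them. Hmga2 had 1042 UMIs in 117 cells, at 905 CPM against 608 and 654 in the myeloid and megakaryocyte subsets (ratio to all other listed cells 2.43, 2.22 to 2.65), and 641 of them came from the Hlf group. Lin28b, which keeps let-7 miRNAs from maturing, had 45 UMIs in 36 cells (39.1 CPM against 32.3 and 35.2), and the RNA-binding Igf2bp3 200 UMIs in 112 cells (ratio 1.91, 1.57 to 2.32). Sox17, needed by fetal liver stem cells, was at 0 UMIs. Hoxa7 had 53 UMIs (ratio 4.59, 2.79 to 7.78) and Hoxa10 had 12, of which all 12 were in the Hlf group.

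Because the study asked about Wnt from arterial vessels, the receptors and targets of that pathway were counted in cluster 2. The study reports that many Wnt genes were hardly seen in its whole-transcriptome data, and it therefore also used a targeted panel. It further reports Tcf/Lef reporter signal in fetal stem and progenitor cells, and fewer of these cells after loss of β-catenin in blood cells. Expression of Fzd5 and Fzd9, known receptors of Wnt2, by haematopoietic cells is also reported there. Low counts here do not show that the pathway is absent. The 10 Frizzled receptor genes gave 1 to 13 UMIs each, led by Fzd7, while the co-receptors Lrp6 and Lrp5 had 85 UMIs in 62 cells and 50 in 42. Ctnnb1, which encodes β-catenin, had 90 UMIs in 67 cells (78.1 CPM against 62.3 in the myeloid and 126 in the megakaryocyte subset), Gsk3b 253 in 112 cells and Csnk1a1 549 in 157. Of the nuclear partners, Lef1 and Tcf7 were at 0 UMIs and Tcf7l2 had 51.

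Among target genes, Axin2, the target most specific to the pathway, had 3 UMIs in 3 cells, Lgr5 8 and Nkd1, Rnf43 and Notum 1 each. Myc (368 UMIs, 320 CPM, ratio 2.07, 1.79 to 2.40) and Ccnd1 (179 UMIs, 155 CPM, ratio 3.45, 2.698 to 4.42) made up nearly all of the list, and many other signals also drive them. Notch readouts were low, with Hes1 at 25.2 CPM against 237 in the myeloid and 112 in the megakaryocyte subset, and 23 of its 29 UMIs in the Hlf group.

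Among receptors and adhesion genes, Kit was found in 89 of 173 cells (143 CPM, against 205 and 176 in the myeloid and megakaryocyte subsets). Cxcr4, the receptor of the niche chemokine Cxcl12, was at 92.9 CPM against 176 in the myeloid and 26.9 in the megakaryocyte subset. Ifngr1, a chain of the interferon gamma receptor, was at 140 CPM (ratio 2.03, 1.62 to 2.54), while Csf2rb was lower than in the myeloid subset (113 against 470). Spi1, which encodes PU.1, had 231 UMIs in 97 cells, of which 86 came from the 33 osteoclast-gene cells.

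Genes of different fates were often read from the same cell when whole lists were counted, and less so for single genes. Primary granule and dendritic genes, the latter including the broadly found Cst3, shared 102 of 173 cells (59.0%), stem cell and primary granule genes 100, stem cell and monocyte genes 88 and stem cell and osteoclast genes 57. With at least 3 UMIs of each list these counts were 71, 74, 19 and 3. UMIs of both primary granule and monocyte genes were found in 70 of 173 cells (40.5%, 33.1 to 48.2%), and in 20.7% (14.8 to 27.7%) of 164 cells thinned to 2000 UMIs. Requiring at least 3 UMIs of each list left 14.5% (9.58 to 20.6%). For single genes, Mpo and Cd34 shared 94 cells, Hlf and Mpo 56, and Flt3 and Hlf 48, whereas Hlf and Elane shared 4, Elane and Irf8 4, Mpo and Ctsk 3 and Cd34 and Ctsk 3. After thinning, Hlf and Elane, Elane and Irf8, and Cd34 and Ctsk shared 0 of 164 cells, which allows a share of up to 2.22% (Clopper-Pearson). With Elane in 19 and Irf8 in 19 of those 164 cells, few shared cells can be read from these genes in any case.

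Cells of both libraries were then assigned to the listed classes, to set WT beside Wls_cKO. The mean profiles of the classes were made from WT cells alone, so listed WT cells were scored against profiles that include them. Shares and levels of the 2 libraries are therefore not fully like for like. The targeted gene came first: Wls was at 133 CPM over all WT cells and 111 over all Wls_cKO cells, and at 40.9 (32.5 to 50.9) and 21.6 (15.4 to 29.6) in cells assigned to listed endothelial clusters. Bmx-CreER is meant to act in arterial endothelial cells, and whether the reads fall in the deleted part was not tested. In cells assigned to cluster 2, Wls was at 80.3 (59.0 to 107) and 63.5 (43.4 to 89.6), with intervals that overlap.

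Nearest-centroid assignment placed 97 of 548 HSPC-assigned WT cells in cluster 2 (17.7%, 14.6 to 21.2%) and 87 of 388 Wls_cKO cells (22.4%, 18.4 to 26.9%). It is a poor stand-in for the authors' cluster: with each listed cell left out in turn it returned 71 of the 173 members, sent 46 of 65 Hlf-group cells to the megakaryocyte centroid, 35 of 44 Mmp9-group cells to the neutrophil centroid and 16 of 30 Elane-group cells to the myeloid centroid. With a centroid for each group it returned 164 of 173 members, along with 91 other listed HSPCs, and gave 45.6% in WT and 44.8% in Wls_cKO. Both methods gave intervals that overlap between the libraries, and 1 library per genotype allows no test of the difference.

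**Figure D4:**
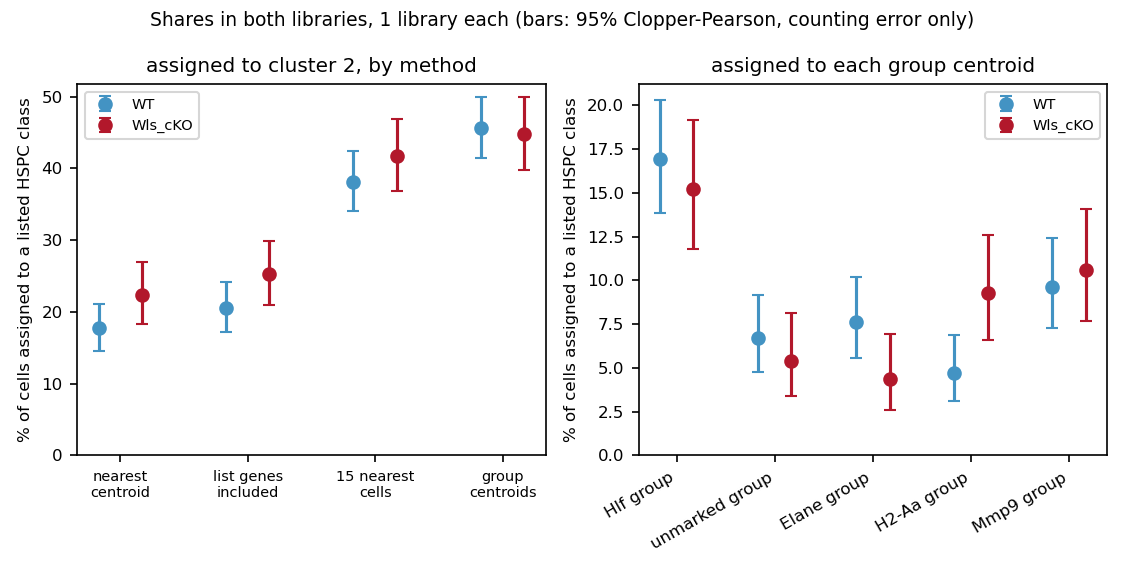
Share of HSPC-assigned cells placed in cluster 2 by 4 methods (left) and at each group centroid (right) in the WT and Wls_cKO libraries, 1 library each, as percentages with 95% Clopper-Pearson bars that cover counting error only. The method moves the WT share from 17.7% to 45.6%, more than the libraries differ within any method.

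By group centroid, the Hlf group took 93 WT cells (16.9%, 13.9 to 20.3%) and 59 Wls_cKO cells (15.2%, 11.8 to 19.2%). The Elane group took 42 (7.64%, 5.56 to 10.2%) and 17 (4.38%, 2.57 to 6.92%), and the H2-Aa group 26 (4.73%, 3.11 to 6.85%) and 36 (9.28%, 6.58 to 12.6%). The intervals of the libraries overlap in each case. The cells taken by the H2-Aa centroid differed in kind, with secondary granule genes at 250.9 CPM in WT and 16419 in Wls_cKO, dendritic genes at 35716 and 14239 and G2/M genes at 151 and 2439, so the 26 and 36 cells are not counts of 1 kind of cell.

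The 93 WT and 59 Wls_cKO cells at the Hlf-group centroid are not the 65-cell Hlf group itself. Of those 65 cells, 57 returned to that centroid when left out in turn. The cells at the centroid were close in their stem cell genes between the 2 libraries. The list stood at 1643 CPM in WT and 1596 in Wls_cKO (ratio 0.971, 0.872 to 1.08), and Hlf, Hoxa9 and Flt3 had ratios of 0.876, 1.18 and 1.22, each with an interval that includes 1. Primary granule genes had a ratio of 0.833 (0.720 to 0.962) and Wnt target genes 0.777 (0.638 to 0.943), with Myc at 373 and 283 CPM (0.760, 0.592 to 0.972) and Axin2 at 3 and 0 UMIs. G2/M genes stood at 2794 and 3055 (1.09, 1.01 to 1.18). Cartilage and stromal genes moved too, from 1214 to 1732 (1.43, 1.27 to 1.596), and the part of free RNA in these ratios was not tested. Of 1892 genes with at least 100 UMIs in these cells, 0.317% were at least 2-fold higher and 0.211% at least 2-fold lower in Wls_cKO, with Gm9843, Gm10051, Ndufc1, Rps12-ps9 and Nusap1 the highest and Myl6, Cebpb, Hnrnpa1, Zfml and Ifrd1 the lowest. Rps12-ps9 is by its name a pseudogene copy of Rps12, so its count is uncertain.

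In the cells assigned to cluster 2 as a whole, secondary granule genes stood at 68.4 CPM in WT (40 UMIs in 11 of 97 cells) and 5529 in Wls_cKO (2788 UMIs in 25 of 87 cells). Camp, Ltf and Ngp, antimicrobial proteins of later neutrophil granules, had 0 UMIs in WT and 134, 110 and 414 in Wls_cKO, S100a9 had 3 and 1056, and Stfa2l1 1 and 144. These were the 5 highest ratios, where 1.56% of 2379 genes were at least 2-fold higher and 0.294% at least 2-fold lower. Those 5 genes passed the UMI minimum for ranking only through the Wls_cKO cells, where they are high. Their rank thus follows in part from that minimum and is no support. Of the secondary granule UMIs in the Wls_cKO cells, 90.7% came from 5 of 87 cells and 1103 from 1 cell. The 5 lowest were Strbp (ratio 0.443), Gm14681 (0.427), Car2 (0.343), Gatm (0.328) and Rgs1 (0.259).

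Elane rose from 219 to 756 CPM in these cells (ratio 3.45, 2.82 to 4.25) and Ctsg from 494 to 1025 (2.08, 1.79 to 2.41), while Hlf went from 156 to 71.4 (0.459, 0.303 to 0.682). Over the cells at all group centroids together, Hlf had a ratio of 0.724 (0.613 to 0.852), Elane 2.60, Mpo 1.06 and primary granule genes 1.30. Without the cells holding 10 or more secondary granule UMIs (1 WT and 12 Wls_cKO cells), primary granule genes kept a ratio of 1.69 (1.61 to 1.78) and stem cell genes 0.621 (0.510 to 0.755). At the Elane-group centroid, eosinophil genes had 2516 UMIs in 42 WT cells and 55 in 17 Wls_cKO cells, in the direction opposite to the primary granule list (10588 and 20546 CPM, ratio 1.94). Cartilage and stromal genes stood at 358 and 1311 in the same cells. The mix of cells taken by each centroid moves with these ratios, and its part was not tested.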

How the data were processed

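Whole-transcriptome counts were examined from 1 WT and 1 Wls_cKO library of E18.5 marrow. The files that the authors deposited hold UMI counts for each gene in each barcode (per the labels, raw, with bcl2fastq 2.19.1.403, UMI-tools 1.0.1, STAR 2.7.1a and featureCounts 1.6.4 of Subread named in the submitters' processing notes, on mm10). The counting annotation is not given in the sources used here. Cell classes came from the authors' published list of cells.

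UMIs were summed over the cells of a group and given as CPM (per 1000000 UMIs), with exact Poisson 95% intervals, shares with Clopper-Pearson and ratios with exact conditional binomial intervals. Counts of 0 were left as 0, and for some of them the level that 3 counts would give was stated. The libraries have no replicate, so no test was run and all intervals cover counting error only. Genes with at least 100 UMIs over the listed HSPCs were ranked, and the 15 highest and 10 lowest ratios were named, as were the 5 highest and 5 lowest between libraries. All 545 listed HSPCs were used, and no doublet was removed.

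Groups inside cluster 2 were made with scanpy 1.11.5 in Python 3.11.15 (2000 variable genes without list genes, 11 principal components, resolution 0.5). Cells with over 200 and under 5000 genes and under 30% mitochondrial UMIs were assigned to the most correlated mean WT profile of the listed classes. Of 293 genes in 29 lists, 289 had a row, and the other 4 were not analysed here. Single values of some listed genes are not reported here. The members and lists were chosen with earlier results of these data known. Interval coverage was tested on simulated data. Alternatives were another scaling (edgeR 4.0.16 TMM in R 4.3.3), stricter filters, left-out cells and other assignments.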

Additional observations from a re-analysis of the deposited data

How the results depend on the processing

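No paired analysis was possible because there is 1 library per condition. Ratios of cluster 2 to the other listed HSPCs are given in the order marker genes, stem cell, primary granule, monocyte, dendritic and G2/M lists, where the reported values were 6.00, 0.836, 4.69, 1.16, 1.25 and 1.62. As a mean over cells they were 4.70, 0.683, 4.07, 1.35, 3.06 and 1.42. With TMM scaling they were 5.43, 0.758, 4.25, 1.05, 1.13 and 1.47. With at least 1000 UMIs and under 10% mitochondrial UMIs they were 5.07, 0.712, 3.94, 1.30, 1.61 and 1.38. Without neutrophil-listed cells they were 3.51, 0.474, 2.59, 3.99, 2.98 and 1.08. Without the highest 5% of Scrublet scores the marker ratio was 6.66 and the dendritic ratio 1.35. The monocyte ratio moved to 0.938 (0.868 to 1.01, which includes 1). Alternatives chosen after seeing the data left out the Mmp9 group, which gave 7.60, 6.04 and 1.41 for the marker, granule and G2/M lists. The stem cell list then stood at 1.06, with an interval (0.976 to 1.15) that includes 1, and the monocyte list turned to 0.875 (0.805 to 0.951). Without both the Mmp9 group and neutrophil-listed cells the ratios were 4.44, 0.600, 3.33, 3.02, 3.07 and 0.939, the last turned. For the Hlf group alone they were 1.75 (stem cell, turned), 1.48 (granule), 0.215 (monocyte, turned), 0.274 (dendritic, turned) and 1.43 (G2/M). The share of cells with granule and monocyte UMIs moved from 40.5% to 20.7% when thinned and 14.5% with 3 UMIs of each. The share assigned to cluster 2 moved from 17.7% to 38.2% (15 nearest listed cells) and 45.6% (group centroids) in WT, and from 22.4% to 41.8% and 44.8% in Wls_cKO. The left-out cells set several of these changes by construction, and the cause of the others was not tested. Of the planned values 16 stayed within the interval of the reported value, 30 left it and 1 passed to the other side of 1. Of those added, 2 stayed within it, 12 left it and 6 passed to the other side of 1. For genes at 0 UMIs in cluster 2, 3 counts would be 2.60 CPM.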
